A study of Mus musculus with 6 samples.

Results

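Progression of the cell cycle depends on cyclins, on the kinases they activate and on the inhibitors that hold these kinases back, and 10 genes of this machinery were examined in macrophages with and without ATP citrate lyase (Acly). The 10 genes were given by name and by no rule on their values, in a list drawn up with earlier results of these data known. They are the D-type cyclins *Ccnd1*, *Ccnd2* and *Ccnd3*, the E-type cyclins *Ccne1* and *Ccne2*, cyclin A2 (*Ccna2*), the CDK inhibitors *Cdkn1a*, *Cdkn1b* and *Cdkn2c*, and the transcription factor *E2f1*. All 10 were found among the 24562 gene symbols of the deposited count table and all 10 passed the filter on low counts.

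RNA of unstimulated (naive) bone marrow-derived macrophages (BMDMs) was sequenced, with 3 control and 3 AclyM-KO libraries. The series record gives the mice as female, whereas the study describes its cultured cells as coming from both sexes. Mice of both groups carried Acly alleles flanked by loxP sites (Acly fl/fl). In AclyM-KO mice, Cre recombinase driven by the *Lyz2* promoter removed an Acly exon in myeloid cells, and the control animals had no Cre. Cells of both groups were grown from bone marrow in medium with L929-conditioned medium, which contains macrophage growth factors. The study describes the replicates of its cultured cells as technical ones from pooled mice, and nothing in the labels ties the 6 libraries to separate mice, so the p-values given here measure only the spread between these libraries. Cre acts only in cells that use the *Lyz2* promoter, and bulk RNA cannot tell fewer cells of a kind from less RNA per cell, nor more cycling cells from more transcript per cycling cell.

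With 1 transcript per gene, the total count ranged from 11120034 to 13598887 in control libraries and was 11386212, 25814853 and 11462221 in AclyM-KO replicates 1, 2 and 3, so that AclyM-KO replicate 2 was sequenced more deeply than the others. *Acly* itself (NM_134037, chromosome 11) measured 220.4, 233.0 and 235.8 CPM (counts scaled to the normalised library size) in control and 93.3, 98.9 and 98.3 CPM in AclyM-KO libraries. This was a log2 fold change of -1.25 (adjusted p = 5.58e-07, standard error 0.066), and the 3 libraries of each group were close together and apart from the other group. The count covers the whole transcript and not only the exon that Cre removes. The summed level of 6 macrophage markers was 8422 to 8626 CPM in control and 6832 to 8085 CPM in AclyM-KO libraries, with *Csf1r* and *Mertk* lower and the other 4 not past the threshold. The summed markers of B cells, of T cells, of mast cells and basophils, and of fibroblasts each reached at most 0.299 CPM in any library, and *Cd3e*, *Cd3g*, *Fcer1a* and *Pdgfra* were at 0 in all libraries. Of 8 neutrophil markers, 4 had enough counts to be tested. The summed level of all 8 was 27.5 to 31.1 CPM in control and 28.7 to 30.4 CPM in AclyM-KO libraries.

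In G1, D-type cyclins are made in response to growth factors such as macrophage colony-stimulating factor and activate CDK4 and CDK6, which phosphorylate the retinoblastoma protein. This releases E2F transcription factors, which drive the genes of E-type cyclins, cyclin A2 and DNA replication, and cyclin E and cyclin A then activate CDK2 to start and sustain S phase. CDK inhibitors of the CIP/KIP family (p21 from *Cdkn1a*, p27 from *Cdkn1b*) act mainly on CDK2 complexes, and those of the INK4 family (p18 from *Cdkn2c*) block CDK4 and CDK6. Macrophages grown from marrow divide while the growth factor is present and leave the cycle as they mature.

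The comparison of the groups asked whether loss of Acly went with a different set of cell cycle regulators. Of the 10 genes, 4 were higher in AclyM-KO macrophages (*Ccne2*, *Ccnd1*, *Ccna2* and *Cdkn2c*), 1 was lower (*Cdkn1b*) and 5 did not pass the threshold of 0.05 on the adjusted p of edgeR's quasi-likelihood test. Among all 11470 genes tested, 6.70% were higher and 5.65% were lower by the same rule. All 3 AclyM-KO libraries lay above all 3 control libraries in 6 of the 10 genes, which held for 16.3% of all genes, and below them in 1, which held for 16.6%. The median log2 fold change of the 10 genes was 0.44, beside 0.00 over all genes. Without AclyM-KO replicate 2, 6 genes were higher and 1 lower and the median was 0.33, while 1105 of 11554 genes of the whole table were then higher. The replicate stood highest of the AclyM-KO libraries in 5 of the 10 genes and lowest in 4.

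**Figure D1:**
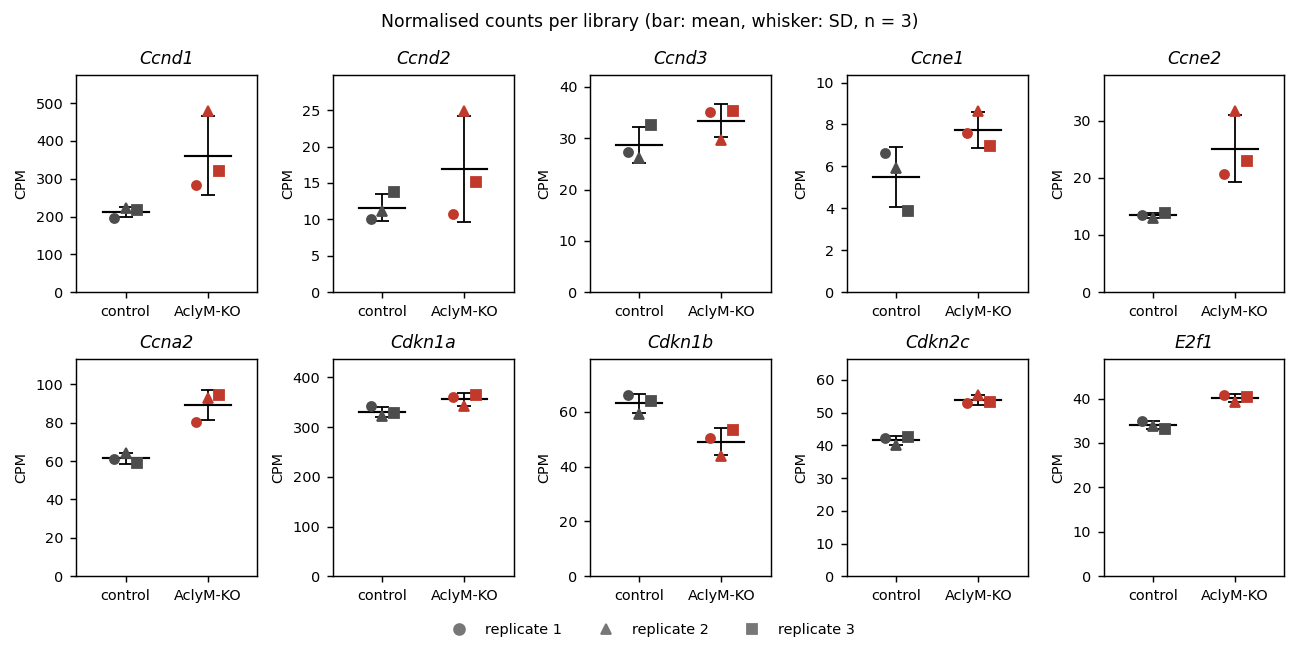
Normalised counts (CPM, vertical axis from 0) of the 10 genes in 3 control (grey) and 3 AclyM-KO (red) libraries, with the mean as a bar and the SD as whiskers. In Ccnd1, Ccne1, Ccne2, Ccna2, Cdkn2c and E2f1 every AclyM-KO point lies above every control point, in Cdkn1b every AclyM-KO point lies below, and replicate 2 (triangle) stands apart in Ccnd1, Ccnd2 and Ccne2.

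The D-type cyclins were considered first. *Ccnd1* (NM_007631, mm10 chromosome 7, 144929931 to 144939831) encodes cyclin D1 and had 197.3, 221.7 and 218.1 CPM in control and 283.5, 479.8 and 321.1 CPM in AclyM-KO replicates 1, 2 and 3. The groups did not overlap, and AclyM-KO replicate 2 was far above the other libraries. The means were 212.4 ± 13.1 CPM and 361.5 ± 104.2 CPM (SD, n = 3 each), which is a log2 fold change of 0.77 (95% interval 0.44 to 1.11, adjusted p = 0.00762) or 1.71-fold. Without AclyM-KO replicate 2 the log2 fold change was 0.51, and *Ccnd1* still passed the threshold. *Ccnd2* (NM_009829, chromosome 6, 127125162 to 127152188), which encodes cyclin D2, had 10.003, 11.1 and 13.7 CPM in control and 10.7, 24.9 and 15.1 CPM in AclyM-KO libraries. These ranges overlapped, since AclyM-KO replicate 1 lay within the control range, and the log2 fold change of 0.59 (0.03 to 1.14) had an adjusted p of 0.158. It was 0.15 without AclyM-KO replicate 2 and 0.81 without AclyM-KO replicate 1, where the adjusted p was 0.0235. *Ccnd3* (NM_007632, chromosome 17, 47505051 to 47599689), for cyclin D3, had 27.4, 26.1 and 32.7 CPM in control and 35.2, 29.7 and 35.3 CPM in AclyM-KO libraries. Here AclyM-KO replicate 2 was the lowest of its group and fell inside the control range, and the log2 fold change of 0.21 (-0.03 to 0.46) had an adjusted p of 0.252.

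The 3 D-type cyclins can replace each other in part, so their levels were also set against each other within a library, per kilobase of transcript (RPKM). Cyclin D1 made up 77.4%, 79.9% and 75.7% of the summed D-type cyclin RPKM in control and 79.6%, 87.1% and 80.9% in AclyM-KO libraries. Cyclin D3 made up 20.3%, 17.8% and 21.4% in control and 18.7%, 10.2% and 16.8% in AclyM-KO libraries, and cyclin D2 between 1.78% and 2.81% in every library. The mean share of cyclin D1 was 4.87 percentage points higher in AclyM-KO macrophages, and the difference for cyclin D3 was -4.60 points. These differences were 2.58 and -2.09 points without AclyM-KO replicate 2. With counts summed over the transcripts of each gene they were 7.98 and -7.93 points. Of these genes only *Ccnd3* was counted as several transcripts, with nearly equal counts, so its reads entered this sum repeatedly. The larger values are therefore not a separate estimate of the shift. The groups overlapped in both shares, and exact permutation tests (two-sided) gave p = 0.20 for each and 0.40 for cyclin D2, where 3 libraries against 3 cannot give less than 0.10. Cyclin D1 was thus the main D-type cyclin transcript of both groups, and a change in the composition was not resolved with 3 libraries a group.

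The E-type cyclins come next in the cycle. *Ccne2* (NM_009830, chromosome 4, 11190433 to 11204779), for cyclin E2, had 13.5, 12.9 and 13.9 CPM in control and 20.7, 31.7 and 22.9 CPM in AclyM-KO libraries. The control libraries differed by less than 1 CPM, and all AclyM-KO libraries lay above them. With a log2 fold change of 0.92 (0.59 to 1.26, adjusted p = 0.00316), or 1.90-fold, its fold change was the largest of the 10 genes. *Ccne1* (NM_007633, chromosome 7, 38097984 to 38107490), for cyclin E1, had only 43 to 79 counts per control library and reached 6.64, 5.90 and 3.88 CPM in control and 7.57, 8.65 and 6.98 CPM in AclyM-KO libraries. The libraries did not overlap, but control replicate 3 was well below the other control libraries, and the log2 fold change of 0.51 (0.08 to 0.94) had an adjusted p of 0.117. Without control replicate 3 it was 0.32 (adjusted p = 0.368).

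*Ccna2* (NM_009828, chromosome 3, 36564865 to 36573038) encodes cyclin A2, which binds CDK2 in S phase and CDK1 on the way to mitosis. It had 61.1, 64.4 and 58.8 CPM in control and 80.2, 92.9 and 94.5 CPM in AclyM-KO libraries, with no overlap. The log2 fold change was 0.54 (0.36 to 0.72, adjusted p = 0.00197), or 1.45-fold. Unlike *Ccnd1* and *Ccne2*, *Ccna2* was not highest in AclyM-KO replicate 2. *E2f1* (NM_001291105, chromosome 2, 154559400 to 154569892) encodes a transcription factor that is held inactive by the retinoblastoma protein and that acts on cyclin E and cyclin A2 genes. It had 34.9, 33.9 and 33.2 CPM in control and 40.8, 39.1 and 40.4 CPM in AclyM-KO libraries. The groups did not overlap and each spread by less than 2 CPM, yet the log2 fold change was small (0.24, 0.06 to 0.41) and its adjusted p of 0.0802 missed the threshold. Without AclyM-KO replicate 2 it was 0.26 and passed, with an adjusted p of 0.0281.

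The CDK inhibitors went in different directions. *Cdkn1b* (NM_009875, chromosome 6, 134920401 to 134925525), for p27, had 66.1, 59.0 and 63.8 CPM in control and 50.4, 43.8 and 53.1 CPM in AclyM-KO libraries. All AclyM-KO libraries lay below all control libraries, and the log2 fold change was -0.37 (-0.56 to -0.17, adjusted p = 0.0228), to 0.776 of the control level. This call was lost with any control library left out. Calls became fewer among all genes in these fits too, at 598, 658 and 628, beside 1416 with all libraries. Without control replicate 1, 2 or 3 the log2 fold change was -0.33, -0.41 and -0.36, and the adjusted p was 0.1138, 0.0508 and 0.1004. *Cdkn2c* (NM_001301368, chromosome 4, 109660876 to 109666756), for p18, had 42.2, 40.1 and 42.6 CPM in control and 52.8, 55.4 and 53.3 CPM in AclyM-KO libraries. The groups were tight and apart, with a log2 fold change of 0.37 (0.21 to 0.54, adjusted p = 0.00855), and an adjusted p of 0.0613 without control replicate 2. *Cdkn1a* (NM_007669, chromosome 17, 29090979 to 29100722), for p21, which is induced by p53, had 341.8, 322.7 and 327.2 CPM in control and 360.5, 341.4 and 364.6 CPM in AclyM-KO libraries. The lowest AclyM-KO library lay just below the highest control library, and the log2 fold change of 0.10 (-0.03 to 0.24) had an adjusted p of 0.318. The upper end of its interval corresponds to 1.18-fold.

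**Figure D2:**
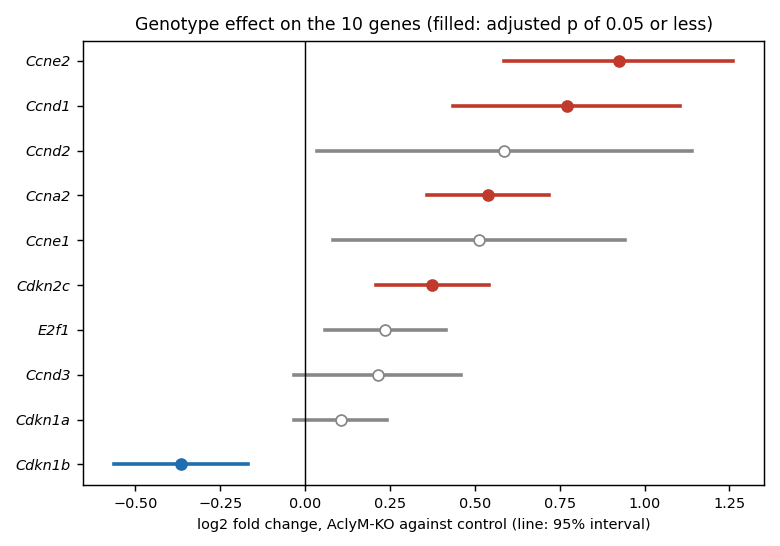
Log2 fold change of AclyM-KO against control macrophages (horizontal axis) for the 10 genes, ordered by size, with lines for the 95% interval and filled points for an adjusted p of 0.05 or less in edgeR. Ccne2 (0.92), Ccnd1 (0.77), Ccna2 (0.54) and Cdkn2c (0.37) are filled to the right of 0 and Cdkn1b (-0.37) to the left.

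The 2 inhibitors that passed the test in opposite directions are shown by the 250 bases before their outermost annotated start (RefSeq, assembly GRCm38.p6, the build named mm10), the stretch that holds the core promoter. *Cdkn1b* is read on the plus strand at chr6:134920151-134920400 and *Cdkn2c* on the minus strand at chr4:109666757-109667006. Capitals mark the CCAAT box (letters CCAAT) and the GC box (letters GGGCGG), each searched on both strands, elements that bind NF-Y and Sp1 family factors.
Cdkn1b: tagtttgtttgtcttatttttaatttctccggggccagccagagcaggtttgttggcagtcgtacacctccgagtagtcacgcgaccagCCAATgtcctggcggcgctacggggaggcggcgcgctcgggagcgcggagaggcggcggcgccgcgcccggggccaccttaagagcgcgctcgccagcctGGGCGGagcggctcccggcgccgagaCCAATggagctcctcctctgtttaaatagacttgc
Cdkn2c: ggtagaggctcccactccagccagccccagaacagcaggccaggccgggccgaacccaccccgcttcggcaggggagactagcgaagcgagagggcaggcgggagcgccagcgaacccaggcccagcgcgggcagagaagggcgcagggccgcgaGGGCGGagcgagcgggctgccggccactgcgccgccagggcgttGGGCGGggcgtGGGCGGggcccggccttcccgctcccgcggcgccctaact
The *Cdkn1b* stretch held 2 CCAAT boxes and 1 GC box and was 64.4% G and C, whereas that of *Cdkn2c* held 3 GC boxes and was 77.2% G and C. A second *Cdkn2c* start inside the gene, not printed, was preceded by 250 bases with 0 GC boxes and 42.8% G and C. CCAAT occurred in 33.8% and GGGCGG in 32.7% of the 32851 promoter stretches of the same length. Sequences were at hand for 6 of the 10 genes, with 9 starts (*Ccnd3*, *Ccne1*, *Cdkn1a*, *Cdkn1b*, *Cdkn2c* and *E2f1*), and 4 of these starts lie inside the annotated gene. The E2F motif in its 4 exact forms TTTCCCGC, TTTCGCGC, TTTGCCGC and TTTGGCGC, on either strand, was in 0 of the 9 stretches and in 1.86% of all, and the CHR element TTTGAA was in 0 of 9 and in 16.0% of all. These counts describe the letters of these stretches only.

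Because p21 and p27 bind the same kinases, the ratio of their transcripts was computed within each library. The log2 ratio of *Cdkn1a* to *Cdkn1b* RPKM was 2.69, 2.77 and 2.68 in control and 3.16, 3.29 and 3.10 in AclyM-KO libraries. The groups did not overlap and the mean difference was 0.47, with p = 0.10 in an exact permutation test (two-sided), the smallest value that 3 libraries against 3 allow. *Cdkn1a* transcript thus exceeded that of *Cdkn1b* in every library of both groups.

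**Figure D3:**
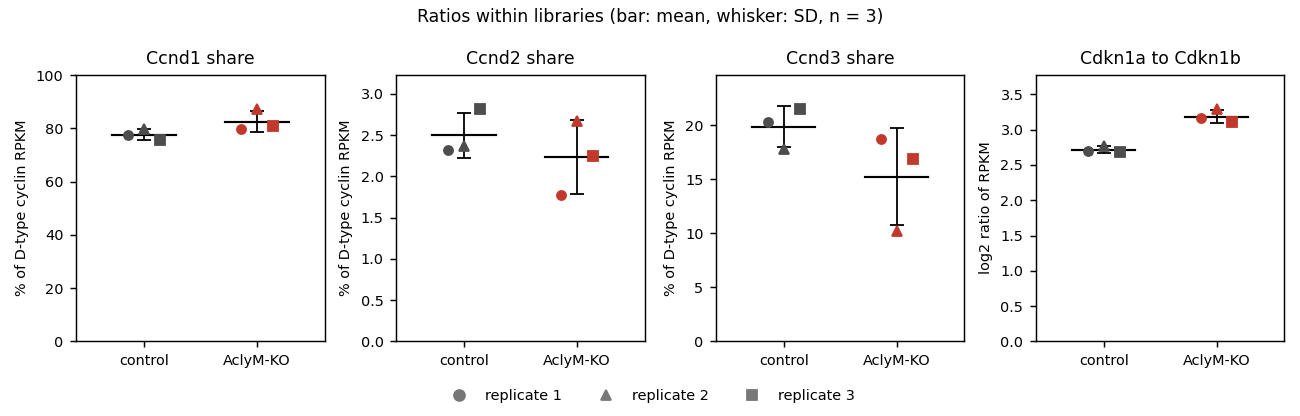
Share of each D-type cyclin in the summed RPKM of Ccnd1, Ccnd2 and Ccnd3 (percent, first 3 panels) and log2 ratio of Cdkn1a to Cdkn1b RPKM (last panel) in each library, with mean and SD of 3 libraries per group. The shares overlap between groups, with Ccnd1 at 75.7% to 87.1%, whereas the 3 AclyM-KO ratios (3.10 to 3.29) lie above the 3 control ratios (2.68 to 2.77).

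The genes were grouped by step, with all 3 CDK inhibitors placed in G1. The 6 genes of G1 (*Ccnd1*, *Ccnd2*, *Ccnd3*, *Cdkn1a*, *Cdkn1b* and *Cdkn2c*) comprised 2 that rose and 1 that fell, with a median log2 fold change of 0.29. The 4 genes of the G1/S step and later (*Ccne1*, *Ccne2*, *Ccna2* and *E2f1*) comprised 2 that rose, and all 4 had AclyM-KO libraries above control libraries, with a median of 0.52. Both medians depend on this placing, since p21 and p27 act mainly on CDK2, which starts S phase. Their genes *Cdkn1a* (0.10) and *Cdkn1b* (-0.37) had the lowest estimates of the 10, so no difference between the steps is drawn from these medians. Grouped by function, 3 of 6 cyclins rose, with a median of 0.56, while of the 3 CDK inhibitors 1 rose and 1 fell, with a median of 0.10. The average of the log2 levels of the 10 genes, each taken relative to its mean over the 6 libraries, came to -0.17, -0.20 and -0.18 in control, against 0.07, 0.32 and 0.17 in AclyM-KO replicates 1, 2 and 3. The cyclins alone averaged -0.29, -0.27 and -0.28 in control, against 0.07, 0.53 and 0.23 with the knockout, so the AclyM-KO libraries differed more among themselves than the control libraries did. For the 3 inhibitors it stayed between -0.08 and 0.07 in every library.

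Levels per length placed *Cdkn1a* first in both groups, at 170.6 ± 4.71 RPKM in control and 187.9 ± 4.25 RPKM in AclyM-KO macrophages (SD, n = 3 each). *Ccnd1* followed at 56.1 ± 3.72 RPKM and 97.9 ± 29.4 RPKM. In control macrophages the order went on with *Cdkn1b* (26.0 RPKM), *Ccna2* (20.5 RPKM), *Cdkn2c* (16.6 RPKM), *Ccnd3* (14.3 RPKM), *E2f1* (12.2 RPKM), *Ccne2* (4.41 RPKM), *Ccne1* (2.70 RPKM) and *Ccnd2* (1.81 RPKM). The ranges of *Cdkn2c* and *Ccnd3* overlapped there, as did those of *Ccne1* and *Ccnd2*, and the other neighbours were separate. In AclyM-KO macrophages *Cdkn1b* (20.7 RPKM) stood below *Ccna2* (30.4 RPKM) and overlapped *Cdkn2c* (22.0 RPKM), and the order of the other genes was as in control. The E-type cyclins and cyclin D2 were the least abundant transcripts of the 10 in either group.

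**Figure D4:**
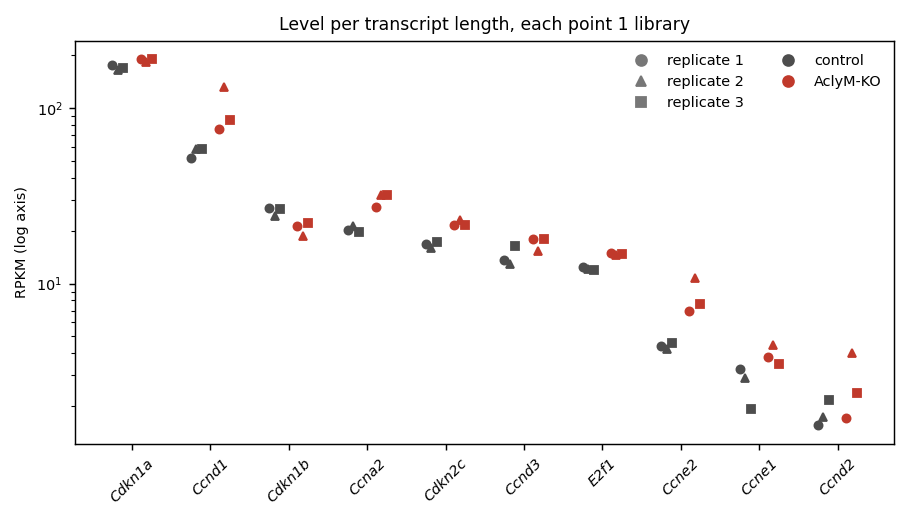
Transcript level per length (RPKM, log axis) of the 10 genes in each control (grey) and AclyM-KO (red) library, ordered by the control mean from 170.6 RPKM in Cdkn1a to 1.81 RPKM in Ccnd2. Cdkn1b, at 26.0 RPKM in control, lies below Ccna2 in all AclyM-KO libraries.

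Several of these genes lie close to genes on the other strand, and the study states only that its counting tool was run with default settings, without spelling out how strand was used, so whether reads from overlapping exons were kept apart is not known here. Exons of *Ccnd1* overlapped those of *LTO1* over 1100 bases, *Ccne2* those of *Ints8* over 609 bases, *Ccna2* those of *Exosc9* over 510 bases and *Ccnd3* those of *Bysl* over 361 bases. *LTO1* was itself higher in AclyM-KO macrophages (log2 fold change 0.71, adjusted p = 0.00304), and its count was 25.4% to 30.5% of the *Ccnd1* count in the 6 libraries. *Ints8* was higher too (0.38, adjusted p = 0.0244), by less than *Ccne2*, while *Exosc9* (0.19, adjusted p = 0.244) and *Bysl* (0.25, adjusted p = 0.171) did not pass the threshold. *Ccnd2* overlapped the antisense genes *9330179D12Rik* (368 bases), which had too few counts to be tested, and *Gm43126* (372 bases), and *Cdkn1a* overlapped *AC167363.2* (273 bases), and no counts were matched to the latter 2 genes. No annotated exon of the opposite strand overlapped *Ccne1*, *Cdkn1b*, *Cdkn2c* or *E2f1*. What share of these counts came from the neighbour was not tested. Among the list genes named further on, *Cdk4*, *Cdk6*, *Rb1*, *Rbl2*, *Cdkn1c*, *Ccna1*, *Cdc25c*, *E2f7*, *E2f8* and *Gadd45a* overlap exons of the opposite strand as well.

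Some genes were counted as several transcripts. The transcripts of *Ccnd3*, *Ccne2*, *Cdkn1a* and *E2f1* had nearly equal counts, as reads on shared exons were counted in each. *Cdkn2c* was the exception, as its longer transcript NM_001301368 had 464, 536 and 472 counts in the control group against 607, 1467 and 611 with the knockout. The shorter NM_007671 had 301, 346 and 317 counts in the control group against 386, 989 and 354 with the knockout. Fitted among all transcripts, the log2 fold change was 0.38 for the longer (adjusted p = 0.00815) and 0.33 for the shorter (adjusted p = 0.0526), so the estimates were close although only the longer transcript passed the threshold.

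The partners of the 10 genes were taken from lists of their pathways. Among 10 G1 kinases and further CDK inhibitors, 3 rose and 7 did not pass the threshold, with a median log2 fold change of 0.10. *Cdk4* (0.13, adjusted p = 0.326) and *Cdk6* (0.09, adjusted p = 0.705), the kinases that D-type cyclins activate, had overlapping groups. The 3 that rose were inhibitors: *Cdkn1c* (p57), with 0.74 (adjusted p = 0.00473), *Cdkn2a*, the locus of p16 and of the p53 activator p19Arf, with 1.18 (adjusted p = 0.0345), and *Cdkn2b* (p15), with 2.37 (adjusted p = 0.00802). The INK4 genes *Cdkn2a* and *Cdkn2b* were scarce. Control libraries held 3, 5 and 5 counts of *Cdkn2b* and AclyM-KO libraries 13, 74 and 16. For *Cdkn2a*, control libraries held 9, 9 and 8 counts and AclyM-KO libraries 15, 52 and 18. At their highest, *Cdkn2b* was at 2.80 CPM and *Cdkn2a* at 1.96 CPM, both in AclyM-KO replicate 2. *Cdkn2a* did not pass with DESeq2, without any of the control libraries, or without AclyM-KO replicate 2 or 3. With at least 10 counts required in every library, *Cdkn2a* and *Cdkn2b* were not tested and 1 gene of the list, *Cdkn1c*, rose.

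Of 12 further RB and E2F family genes, 4 rose and 1 fell, with a median of 0.15, which was 0.09 without AclyM-KO replicate 2. The atypical repressors *E2f7* (0.99, adjusted p = 0.0160) and *E2f8* (0.75, adjusted p = 0.0161) rose most, followed by *E2f6* (0.50, adjusted p = 0.0104). *Rbl2*, the pocket protein p130 of resting cells, fell by 0.29 on the log2 scale (adjusted p = 0.0343), and *Rb1* was at -0.05 (adjusted p = 0.738). The number that rose was 1, 2 and 3 without control replicate 1, 2 or 3, and *Rbl2* passed in none of these, nor without AclyM-KO replicate 3. Calls were fewer among all genes in each of these fits.

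Of 18 regulators of S phase and of the passage from G2 to mitosis, *Ccna1* had too few counts to be tested, 10 rose and the other 7, which did not pass the threshold, also had positive estimates. The median was 0.57, and 13 of the 17 had all AclyM-KO libraries above all control libraries. The largest changes past the threshold were those of *Mybl2* (1.34, adjusted p = 0.00548), *Cdc25c* (0.78, adjusted p = 0.0160), the phosphatase that activates CDK1, and cyclin B1 (*Ccnb1*, 0.76, adjusted p = 0.00875), and *Cdk1* rose by 0.50 (adjusted p = 0.0249). The count was also 10 without AclyM-KO replicate 2, with a median of 0.40, and it was 4, 6 and 7 without control replicate 1, 2 or 3. In these last 3 fits, 363 of 11608, 376 of 11574 and 384 of 11604 genes of the whole table were higher, beside 768 of 11470 with all libraries, so calls became fewer among all genes too. Beside this median, that of the 6 G1 genes among the 10 was 0.29 and that of the 4 later ones 0.52. Those medians depend on the placing of *Cdkn1a* and *Cdkn1b* in G1.

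Of 13 genes of DNA replication that E2F factors drive, 5 rose and 8 did not pass the threshold, with a median of 0.45. *Rrm2*, a subunit of ribonucleotide reductase, rose by 0.66 (adjusted p = 0.0291), *Mcm5*, of the replicative helicase, by 0.58 (adjusted p = 0.00177) and *Tyms*, thymidylate synthase, by 0.56 (adjusted p = 0.0445). In 12 of the 13 genes AclyM-KO replicate 2 was the highest of its group. Without it 4 genes rose and the median was 0.25, and without control replicate 1, 2 or 3 the count was 1 each time, in the fits in which calls were fewer among all genes, and it was 10 without AclyM-KO replicate 1.

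Of 20 genes of the p53 response, 1 rose and 1 fell, with a median of 0.04. Over all genes 6.70% rose and 5.65% fell, and the median was 0.00. *Mdm2*, the ubiquitin ligase that p53 induces and that degrades it, rose by 0.36 (adjusted p = 0.0357), *Gadd45a* fell by 0.26 (adjusted p = 0.0404), and *Trp53* itself was at -0.02 (adjusted p = 0.914). Without AclyM-KO replicate 2, 5 of the 20 rose and 1 fell, with a median of 0.09, beside 1105 and 1031 of all 11554 genes. Without AclyM-KO replicate 1 it was 1 and 3 of the 20, beside 872 and 770 of all 11572 genes. Neither *Mdm2* nor *Gadd45a* passed without AclyM-KO replicate 3 or without any of the control libraries, fits in which calls were fewer among all genes. With limma-voom 4 rose and 2 fell, beside 1110 and 1077 of all 11470 genes. With the replicate number as a block 2 rose and 1 fell, beside 862 and 721 of all genes. *Gadd45a* did not pass with total counts only or with counts summed over transcripts. Of 12 genes that control the turnover or transcription of G1 regulators, 1 rose, with a median of -0.06, or -0.04 without AclyM-KO replicate 2, and 2 rose without AclyM-KO replicate 1. With all libraries the gene that rose was *Dtl* (0.82, adjusted p = 0.00890), which directs p21 and Cdt1 to degradation in S phase, and it did not pass without control replicate 2. *Skp2*, the ligase subunit that recognises p27, was at -0.09 (adjusted p = 0.618), *Foxo3*, a factor that drives the p27 gene, at -0.22 (adjusted p = 0.337) and *Myc* at 0.39 (adjusted p = 0.134). Of 11 tested cyclins of other families, 1 fell (*Ccni*, -0.25, adjusted p = 0.0398) and the median was 0.04, or 0.01 without AclyM-KO replicate 2. Without AclyM-KO replicate 1, 1 of these rose and 2 fell, and *Ccni* did not pass without AclyM-KO replicate 3 or any of the control libraries, nor with total counts only or counts summed over transcripts. Of 5 tested senescence markers 1 rose, the secreted factor *Gdf15* (0.97, adjusted p = 1.48e-04), and 2 rose when any of the AclyM-KO libraries was left out, with 1 that fell without AclyM-KO replicate 2.

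**Figure D5:**
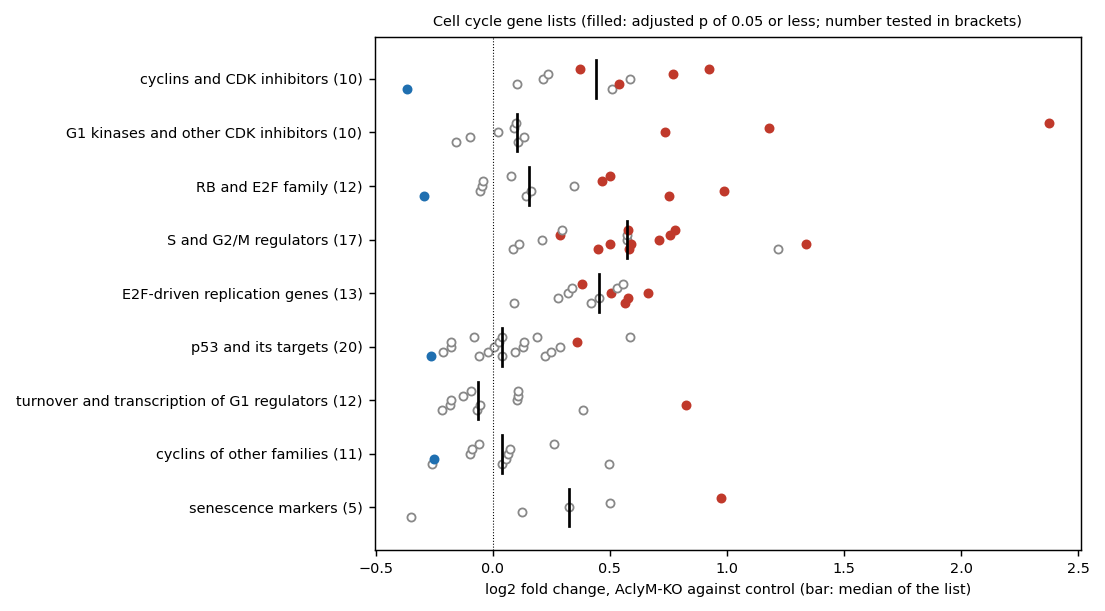
Log2 fold change of AclyM-KO against control macrophages (horizontal axis) for the genes tested in each list, with the number tested in brackets, a bar for the median of the list and filled points for an adjusted p of 0.05 or less. The medians of the 10 genes (0.44), of the S and G2/M regulators (0.57) and of the replication genes (0.45) lie to the right of those of the p53 (0.04) and turnover (-0.06) lists.

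Some markers of macrophages and of progenitors also differed between the groups. *Csf1r*, the receptor for macrophage colony-stimulating factor, had 3380, 3091 and 3240 CPM in control and 2813, 1733 and 2429 CPM in AclyM-KO replicates 1, 2 and 3 (log2 fold change -0.48, adjusted p = 0.0391), and *Mertk* was lower as well (-0.67, adjusted p = 0.00202). AclyM-KO replicate 2, which had the highest *Ccnd1*, *Ccnd2*, *Ccne1*, *Ccne2* and *Cdkn2c*, thus had the lowest *Csf1r*. *Kit*, a marker of progenitors, averaged 9.85 ± 0.525 CPM in control against 20.4 ± 2.82 CPM in AclyM-KO macrophages (SD, n = 3 each, log2 fold change 1.07, adjusted p = 5.05e-04). The other progenitor markers *Cd34* and *Flt3* had too few counts to be tested, and the summed level of the 3 markers was 9.64 to 10.7 CPM in control and 19.2 to 24.3 CPM in AclyM-KO libraries. Their part in the levels of the 10 genes was not tested.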

How the data were processed

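Total RNA of unstimulated BMDMs was made into strand-specific libraries (KAPA mRNA HyperPrep) and sequenced. The authors aligned reads to mm10 with STAR 2.5.2b, kept alignments with a mapping quality above 15 and deposited raw counts per RefSeq transcript, summed with HOMER2 and not normalised. The counting was run with default settings, and neither the RefSeq release nor the use of strand is spelled out in the sources used here. Of 12 columns of values, 6 belong to the libraries of this report and 6 were not used.

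Of 35745 transcripts, 35440 were named from a RefSeq gene table and 188 from GENCODE M21, and 117 kept their accession. For each of 24562 symbols, the transcript with the most counts was kept. The quasi-likelihood test of edgeR 4.0.16 (R 4.3.3, TMM normalisation, genotype as sole factor) was run on the 11470 genes left by filterByExpr, with Benjamini-Hochberg adjustment and a threshold of 0.05. Every adjusted p in the report comes from this test unless another is named. The biological coefficient of variation was 8.90%. Standard errors and 95% intervals of log2 fold changes were computed from the F statistic. CPM used TMM-normalised library sizes. RPKM used GENCODE transcript lengths and the total count with 1 transcript per gene. Ratios were compared by two-sided exact permutation tests (scipy 1.17.1). Exon overlaps were read from GENCODE M21 and promoter sequences from RefSeq. On simulated counts with the depth of these libraries, the test found 181 of 200 altered genes (90.5%) among 11397 tested, with 14 false calls. Each altered gene was given a log2 fold change of 1 up or down, larger than that of any of the 10 genes. The rate for smaller changes was not simulated.

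The 10 genes, the partner lists and the marker lists were chosen with earlier results of these data known. The text names all 10 genes, the 3 genes per list and direction with the largest log2 fold change past the threshold, a few regulators whatever their values (*Cdk4*, *Cdk6*, *Rb1*, *Trp53*, *Mdm2*, *Skp2*, *Foxo3*, *Myc*, *Cdk1*, *Ccnb1* and *Cdkn2a*), genes overlapping the 10, markers, and *Acly* as the check of the labels. *Ccna1* was named after its values were seen. A further marker list is not reported here. Alternatives were a replicate block, DESeq2 1.42.0, scaling by RLE or by total counts alone, at least 10 counts in every library or no filter, limma-voom with weighted samples (limma 3.58.1), counts summed over transcripts, all transcripts, AclyM-KO replicate 2 thinned to 11386654 counts, each library left out in turn and a threshold of 0.01. Between replicates of the same number, the deviations from the group means correlated with r = 0.0996, 0.126 and -0.0612, so the numbers were not taken as pairs.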

Additional observations from a re-analysis of the deposited data

How the results depend on the processing

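Of 160 alternative values for the 10 genes, 150 kept their direction and their side of the threshold, 4 lost and 6 gained a call, and 0 turned direction. *Cdkn1b* lost its call in edgeR without each control library (-0.33, -0.41 and -0.36) and lay between -0.43 and -0.28 with any library left out, and *Cdkn2c* lost it without control replicate 2 (0.35, range 0.35 to 0.39). *Ccnd2* passed without a filter on low counts (0.58, adjusted p = 0.0467) and without AclyM-KO replicate 1 (0.81, range 0.15 to 0.81), and *Ccnd3* without AclyM-KO replicate 2 (0.30, range 0.15 to 0.31). *E2f1* passed with total counts only (0.27, adjusted p = 0.0494), with limma-voom (0.25, adjusted p = 0.0298) and without AclyM-KO replicate 2 (0.26, range 0.22 to 0.26). The number of the 10 genes that were lower was 0 at a threshold of 0.01 on the adjusted p, which was 0.0228 for *Cdkn1b* in edgeR (unadjusted p = 0.00174). With a library left out, the number lower ranged from 0 to 1 and the number higher from 3 to 6. The causes were not tested.

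With the replicate number as a replicate block, 4 of the 10 genes were higher and 1 was lower, as without it, with *Ccnd1* at 0.73. Over all genes the block gave 1583 calls, limma-voom 2187 and leaving out a library between 598 and 2136, beside 1416. With total counts only, 919 were higher and 508 lower (64.4% higher) in place of 768 and 648 (54.2%), with a median log2 shift of 0.04. Of 272 alternative counts for the partner lists, 217 stayed within 1.5 times the reported count and 55 did not. The 217 include counts that were 0 and stayed 0, which had nothing to keep. For S and G2/M regulators that were lower, for example, all 17 alternative counts were 0. Of the 10 genes, *Ccne1* and *Ccnd2* rested on the fewest counts, with 43 to 79 and 110 to 152 counts per control library.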
